A study of Mus musculus with 6 samples.

Results

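The genes described here were 10 members of the fibroblast growth factor (FGF) system: the FGF-binding carriers Fgfbp1 and Fgfbp3, the ligands Fgf2, Fgf7, Fgf10 and Fgf21, and the receptors Fgfr1, Fgfr2, Fgfr3 and Fgfr4. Each was represented by the transcript cluster, a group of array probes for 1 transcribed locus, that carried only its symbol and had the highest mean over the 6 arrays, which gave 10 of 22180 genes so represented and 10 of 41345 clusters in all. Fgf10 alone had a second cluster, whose mean log2 signal of 3.80 was below the 4.0 of the cluster used. Because Fgfbp1 was listed with its change in BORG cells already known, its values are given as a description without a test. The other members and the pathway and marker lists used below were also chosen with earlier results of these data known. Their p-values therefore describe these 6 arrays and are not independent support.

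RNA came from D2.OR cells, a mouse mammary tumour line studied as a model of latent breast cancer, and was measured on Affymetrix Mouse Gene 2.0 ST arrays to ask which transcripts change when the long noncoding RNA BORG is expressed and which of those changes need TRIM28, a chromatin corepressor. Parental cells carried an empty vector. BORG cells were a drug-selected stable line expressing full-length murine BORG, and BORG/sgTRIM28 cells expressed BORG and carried in addition a Cas9 and guide RNA lentivirus directed against TRIM28. All 3 groups were grown for 7 days in 3D-culture on a basement membrane gel and were harvested without enzymes, and each had 2 arrays labelled as biological replicates. The sources used here do not say whether the parental and BORG cells carried a control guide, nor whether replicates came from separately grown lines, so p-values measure the spread between these samples only. With 2 arrays against 2, an exact two-sided permutation test cannot give a p below 0.333, and the tests below are therefore limma's moderated test fitted over all 41345 clusters and 6 arrays, with Benjamini-Hochberg adjustment over all clusters. A gene was called at an adjusted p under 0.05. In RNA from whole cultures, fewer cells of a kind and less RNA per cell cannot be told apart.

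FGF ligands are secreted proteins that bind receptor tyrosine kinases on the cell surface together with heparan sulfate, and the occupied receptors signal through docking proteins to the RAS and MAP kinase cascade. Most ligands are held by heparan sulfate in the matrix near the cell that made them, and FGF-binding proteins such as FGFBP1 are secreted carriers that bind stored FGFs and release them. Fgf21 belongs to the endocrine ligands, which bind heparan sulfate weakly and need a Klotho protein as co-receptor. In the mammary gland, Fgf10 in the stroma and the FGFR2 receptor in the epithelium are needed for the gland to form, and FGF receptor signalling is a known driver in breast tumours.

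The promoter windows of the 3 members with the largest differences, Fgfbp1, Fgf2 and Fgf21, are printed to show the sequence around a listed transcript start of each gene. They hold 250 bases before and 50 bases from a listed transcript start, read 5′ to 3′ on the gene's strand from RefSeq, build GRCm38.p6, in which 9 of the 10 members had such a window (Fgfr1 was not among them). Capitals mark matches, on either strand, to AP-1 (TGANTCA), the hypoxia response core (ACGTG), the ETS core (GGAAG), the GC box (GGGCGG), C/EBP (TTNNGNAA), the TATA box (TATAAA) and the C/EBP-ATF composite (TTGCATCA). The last 2 motifs were added after the windows had been seen.
Fgfbp1: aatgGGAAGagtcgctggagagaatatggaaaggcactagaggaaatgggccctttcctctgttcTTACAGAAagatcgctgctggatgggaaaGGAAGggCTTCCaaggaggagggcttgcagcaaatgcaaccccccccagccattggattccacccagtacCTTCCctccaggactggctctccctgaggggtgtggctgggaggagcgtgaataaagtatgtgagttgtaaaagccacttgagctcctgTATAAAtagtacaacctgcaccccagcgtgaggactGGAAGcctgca
Fgf2: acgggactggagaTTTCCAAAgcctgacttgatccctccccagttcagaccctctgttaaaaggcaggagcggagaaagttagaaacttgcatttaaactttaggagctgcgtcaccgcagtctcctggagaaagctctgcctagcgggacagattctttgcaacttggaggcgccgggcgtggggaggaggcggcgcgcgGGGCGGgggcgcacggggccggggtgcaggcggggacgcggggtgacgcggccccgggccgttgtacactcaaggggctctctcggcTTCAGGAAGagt
Fgf21: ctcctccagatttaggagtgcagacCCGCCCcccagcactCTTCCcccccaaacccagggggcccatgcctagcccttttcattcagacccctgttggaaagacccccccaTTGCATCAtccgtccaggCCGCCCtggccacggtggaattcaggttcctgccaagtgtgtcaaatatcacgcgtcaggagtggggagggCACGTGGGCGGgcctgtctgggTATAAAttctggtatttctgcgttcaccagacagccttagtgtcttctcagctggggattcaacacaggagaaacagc
The Fgfbp1 window, on the minus strand at chr5:43981750-43982049, held 5 ETS cores, 1 C/EBP match and 1 TATA box. That TATA box lay 3 to 8 bases after the listed start. The annotated Fgfbp1 locus reaches to 43981828, so some of the bases before the listed start also lie within the locus. The Fgf2 window, on the plus strand at chr3:37348403-37348702, held 1 GC box, 1 ETS core and 2 C/EBP matches, the second of which overlapped the ETS core. The annotated Fgf2 locus begins at 37348477, so most of this window, with the GC box and the ETS core, lies within the locus. The Fgf21 window, on the minus strand at chr7:45615441-45615740, held 3 GC boxes, 1 ETS core, a TATA box from 28 bases before the start, 1 C/EBP-ATF composite and a palindromic CACGTG that contains the hypoxia response core on both strands and overlaps a GC box by 1 base. Over the 32851 windows in the table, 71.4% held the ETS core, 40.7% C/EBP, 35.7% the GC box, 19.6% the hypoxia response core, 13.6% the TATA box, 7.81% AP-1 and 0.895% the C/EBP-ATF composite. No member's window held AP-1. A match is a description of the letters in the window.

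The 6 arrays had medians from 5.18 to 5.24 on the log2 scale and lower quartiles from 3.87 to 3.93. Trim28, the guide's target, read 10.49 and 10.68 in parental arrays, 9.88 and 9.96 in BORG arrays, and 9.50 and 9.53 in BORG/sgTRIM28 arrays. The 3 groups did not overlap, and the knockout cells were lowest. BORG cells held 1.59-fold less Trim28 signal than parental cells (limma, adjusted p = 0.0271), the knockout cells differed from parental cells by -1.07 (limma, adjusted p = 0.058), and the difference of 0.41 between BORG and BORG/sgTRIM28 cells did not pass (limma, adjusted p = 0.0911). Because the guide acts on the DNA, RNA level checks the edit only in part. Of 7 measured mammary epithelial markers, 5 were above the array median in each group. Among them were the luminal keratins Krt8 (9.55 to 11.09) and Krt18 (9.74 to 11.37), and Krt14 (9.67 to 11.21). Epcam (4.68 to 5.01) and Krt19 (4.49 to 4.96) were below the median on every array. Of 8 measured fibroblast markers, 4, 3 and 4 were above the median by group mean in parental, BORG and BORG/sgTRIM28 cells. Pdgfra read 10.93 to 12.29, Col1a1 8.66 to 10.27 and Pdgfrb 6.55 to 8.55. Col1a2 and Thy1 (4.83 to 5.34) lay near the median, and Dcn, Lum and Fap read 3.02 to 3.92. Of 6 measured leukocyte markers, Cd68 (8.04 to 8.37) was above the median on every array, Csf1r (4.80 to 5.28) lay near it, and the defining marker Ptprc was at 3.39 to 3.64.

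Fgfbp1 (chromosome 5, 43978858 to 43981828, GRCm38.p6) was the member with the largest difference and was high in BORG cells alone. Its log2 signal was 3.82 and 3.86 in parental cells, 8.69 and 7.55 in BORG cells, and 3.83 and 3.96 in BORG/sgTRIM28 cells. The BORG arrays stood far above the other 4, which lay close to the arrays' lower quartile, between 3.82 and 3.96. The group means were 3.84 ± 0.03, 8.12 ± 0.81 and 3.89 ± 0.09 (SD, n = 2 each). BORG cells exceeded parental cells by 4.28 (SE 0.35, 95% interval 3.43 to 5.13), or 19.4-fold, and exceeded BORG/sgTRIM28 cells by 4.22 (SE 0.35, 95% interval 3.38 to 5.07), or 18.7-fold. The knockout and parental cells differed by 0.06 (95% interval -0.79 to 0.90). That interval too uses a spread pooled over the 3 groups, to which the BORG arrays contributed most. All 3 comparisons share arrays and are not independent of each other.

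The BORG arrays differed from each other in Fgfbp1 more than most genes did. BORG array 1 was above array 2 by 1.15, a gap exceeded by 89 of 22180 genes, where the median gap between the BORG arrays was 0.16. Without BORG array 1 the difference from parental cells was 3.71, and without array 2 it was 4.85, so the size of the increase, though not its direction, depended on the array. Signal in the parental and knockout cells was so near the low end of the arrays that detection there was not established, and the fold is a ratio of signals.

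Several cell type markers moved with Fgfbp1. The keratins Krt8, Krt18 and Krt14, structural proteins of epithelial cells, were higher in BORG than in parental cells by 1.31, 1.49 and 1.32 (limma, adjusted p = 0.00634, 0.00286 and 0.0077) and than in knockout cells by 1.24, 1.10 and 1.12. The epithelial markers Krt7, Krt19, Epcam and Cdh1 were not called in any comparison. In BORG cells they differed from parental and knockout cells by 0.49 and 0.51, 0.19 and 0.08, 0.11 and -0.07, and 0.02 and -0.41, in that order. The mean over the 7 measured epithelial markers was 7.30 on both parental arrays, 7.96 to 8.05 on BORG arrays and 7.43 to 7.56 on BORG/sgTRIM28 arrays. Over the 8 fibroblast markers it was 6.16 to 6.22, 6.19 to 6.20 and 6.04 to 6.06 in the same order. Within that list Col1a1 and Pdgfrb were higher in BORG than in parental cells by 1.18 and 1.13, and Pdgfra fell by 1.25. No leukocyte, endothelial or adipocyte marker was called in any comparison. The part of these markers in the Fgfbp1 values was not tested.

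Fgfbp3 (chromosome 19), which encodes a related secreted FGF-binding protein, was not called in any comparison. Its log2 signal was 6.48 and 6.72 in parental cells, 6.62 and 6.96 in BORG cells, and 6.88 and 6.93 in BORG/sgTRIM28 cells. The parental and BORG arrays overlapped. Fgfbp3 differed by 0.19 between BORG and parental cells (95% interval -0.20 to 0.57, limma, adjusted p = 0.585) and by -0.12 between BORG and knockout cells (95% interval -0.50 to 0.27, limma, adjusted p = 0.725). The largest of its differences, 0.30 between knockout and parental cells, had a 95% interval from -0.08 to 0.69 (limma, adjusted p = 0.663).

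**Figure D1:**
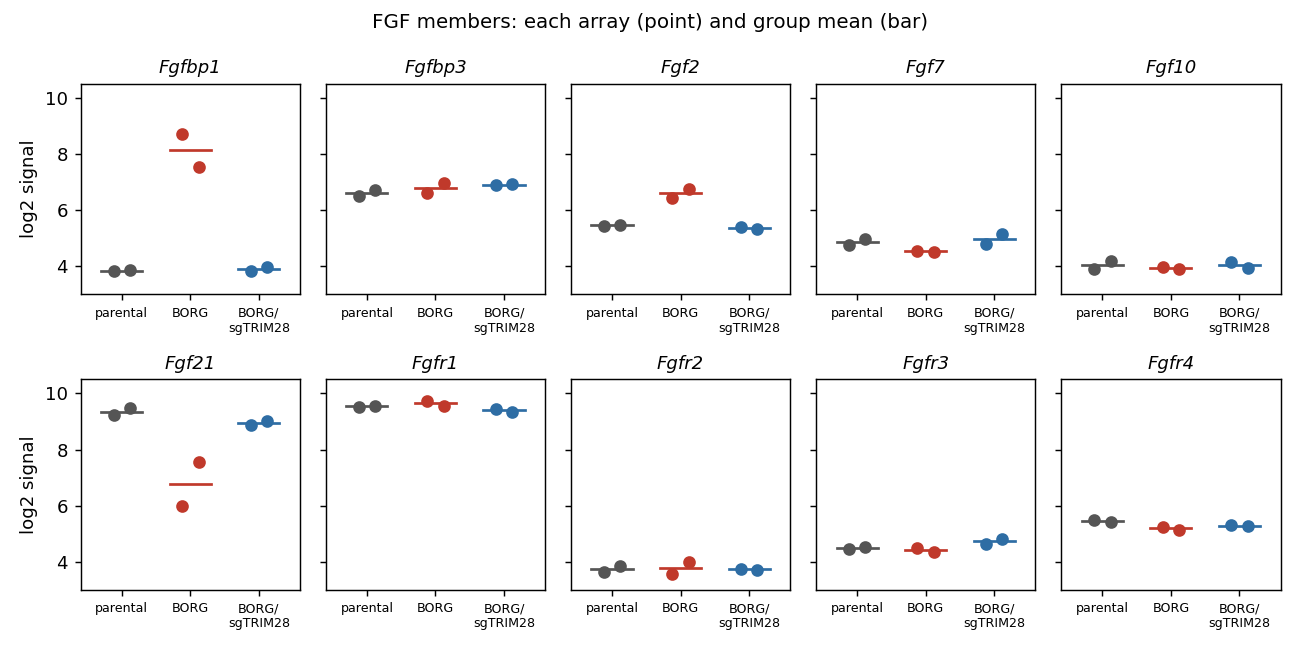
Log2 signal of the 10 FGF members on each of the 6 arrays (points) with the group mean (bar), by group on the horizontal axis (parental, BORG, BORG/sgTRIM28; 2 arrays each). Fgfbp1 rises from 3.82 and 3.86 to 8.69 and 7.55 in BORG cells, Fgf2 is above and Fgf21 below the other groups there, and no receptor is called in any comparison.

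Among the ligands, Fgf2 rose in BORG cells. Fgf2 (chromosome 3, 37348477 to 37410106), or basic FGF, is a growth factor for many cell types that lacks a conventional signal peptide and is a known partner of FGFBP1. Its log2 signal was 5.44 and 5.47 in parental cells, 6.43 and 6.74 in BORG cells, and 5.40 and 5.33 in BORG/sgTRIM28 cells. Both BORG arrays lay above the other 4 arrays, whose values spanned 5.33 to 5.47. The group means were 5.45 ± 0.02, 6.58 ± 0.22 and 5.37 ± 0.05 (SD, n = 2 each). Fgf2 was higher by 1.13 (SE 0.14), or 2.19-fold, in BORG than in parental cells (limma, adjusted p = 0.00912), and by 1.22 (SE 0.14), or 2.32-fold, in BORG than in BORG/sgTRIM28 cells (limma, adjusted p = 0.00585). Knockout and parental cells differed by -0.09 (95% interval -0.42 to 0.25, limma, adjusted p = 0.907). The first call was lost without parental array 1 or 2 (limma, adjusted p = 0.0777 and 0.0748) and the second without BORG/sgTRIM28 array 2 (limma, adjusted p = 0.0531), with the differences between 0.98 and 1.29 over all arrays left out in turn in the first comparison.

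Fgf2 shares genomic sequence with other genes. Nudt6, a nudix hydrolase gene known as the antisense partner of Fgf2, shares 5125 bases with it in the annotation. Each gene has its own cluster. Neither probe positions nor probe strand were available, so it could not be checked whether either cluster also picks up the other gene. The Nudt6 cluster read 5.07 and 4.98 in parental cells, 5.59 and 5.72 in BORG cells, and 5.41 and 5.2 in BORG/sgTRIM28 cells. Nudt6 was thus also highest in BORG cells, by 0.63 over parental cells (SE 0.13, limma, adjusted p = 0.0391) and by 0.35 over knockout cells (limma, adjusted p = 0.156). The noncoding Fgf2os differed by 0.18 between BORG and parental cells (limma, adjusted p = 0.475).

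Fgf21 moved the other way. Fgf21 (chromosome 7, 45613890 to 45615490) encodes an endocrine, metabolic FGF best known from liver and adipose tissue and is a target of the integrated stress response. Its log2 signal was 9.24 and 9.47 in parental cells, 5.97 and 7.54 in BORG cells, and 8.89 and 9.01 in BORG/sgTRIM28 cells. Both BORG arrays were below the other 4 arrays, and they were 1.57 apart, a gap that 18 of 22180 genes exceeded. The group means were 9.35 ± 0.17, 6.75 ± 1.11 and 8.95 ± 0.08 (SD, n = 2 each). Fgf21 fell by 2.60 (SE 0.47), or 6.06-fold, in BORG relative to parental cells (limma, adjusted p = 0.0298) and lay 4.57-fold below its level in BORG/sgTRIM28 cells, a difference of -2.19 (SE 0.47, limma, adjusted p = 0.0408). Counted from the largest decrease, these were places 6 and 15 among 22180 genes. Between knockout and parental cells the difference was -0.40 (95% interval -1.55 to 0.74, limma, adjusted p = 0.865). Both knockout arrays lay below both parental arrays. The interval uses a spread pooled over the 3 groups, and its width comes mostly from the BORG arrays (SD 1.11, against 0.17 and 0.08). It was too wide to say whether the level was fully the same.

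The Fgf21 call was close to the threshold. Both calls were also made without either BORG array, in fits where the BORG arrays no longer contribute to the estimate of the spread and the lone BORG array is assumed to vary like the other groups. Without parental array 1 or 2 the adjusted p of the first comparison was 0.129 and 0.161 by limma, and without either BORG/sgTRIM28 array it was 0.0695. In the second comparison the adjusted p by limma was 0.159 and 0.166 without BORG/sgTRIM28 array 1 or 2 and 0.0804 without either parental array. With each array left out in turn, the difference from parental cells ranged from -3.38 to -1.82. BORG array 1, in which Fgfbp1 was higher, was the array with the lower Fgf21 signal and also the lower Fgf2 signal.

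Fgf7 and Fgf10, the paracrine ligands that mesenchyme makes for the epithelial form of FGFR2, did not pass in any comparison. Fgf7 (chromosome 2) read 4.74 and 4.96 in parental cells, 4.55 and 4.51 in BORG cells, and 4.79 and 5.13 in BORG/sgTRIM28 cells. Each value was below the median of its array, where detection was not established. The BORG arrays were lowest, and the differences were -0.32 from parental cells (limma, adjusted p = 0.311) and -0.43 from knockout cells (95% interval -0.81 to -0.05, limma, adjusted p = 0.159). Its locus lies wholly within that of Fam227b. Fgf10 (chromosome 13) read from 3.90 to 4.18 over all 6 arrays, near their lower quartile, and its 3 differences lay between -0.11 and -0.02. The second Fgf10 cluster gave -0.16, -0.18 and 0.02.

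None of the 4 receptors was called in any comparison, where 7.09%, 9.55% and 0.121% of all clusters were called between BORG and parental, BORG and knockout, and knockout and parental cells. Fgfr1 (chromosome 8), the receptor most often amplified in human breast tumours, read 9.52 and 9.55 in parental cells, 9.74 and 9.55 in BORG cells, and 9.44 and 9.35 in BORG/sgTRIM28 cells. BORG cells differed from parental cells by 0.11 (95% interval -0.18 to 0.40, limma, adjusted p = 0.683) and from knockout cells by 0.25 (95% interval -0.04 to 0.54, limma, adjusted p = 0.273). Intervals of this width leave room for changes of up to 0.54 on the log2 scale. Fgfr1 shares sequence with the noncoding genes Gm16159 and Gm31288 in the annotation. Fgfr2 (chromosome 7), the epithelial receptor of Fgf7 and Fgf10, read between 3.58 and 3.99 on all arrays and differed by 0.04 and 0.06 in BORG cells from parental and knockout cells (limma, adjusted p = 0.935 and 0.879). Both extremes of Fgfr2 came from the BORG arrays.

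Fgfr3 (chromosome 5), best known as a brake on cartilage growth, read 4.46 and 4.52 in parental cells, 4.50 and 4.34 in BORG cells, and 4.65 and 4.83 in BORG/sgTRIM28 cells. These values were below the array median on every array, and detection was not established there. The knockout arrays were highest, and the difference of -0.32 between BORG and knockout cells had an unadjusted p of 0.0401 and an adjusted p of 0.183 (limma). Fgfr4 (chromosome 13), a receptor that pairs with β-Klotho in liver, read 5.49 and 5.40 in parental cells, 5.25 and 5.15 in BORG cells, and 5.32 and 5.27 in BORG/sgTRIM28 cells. Both BORG arrays were below both parental arrays, with a difference of -0.25 (limma, adjusted p = 0.267). Arrays that do not overlap were common: 55.3% of genes had none overlapping between BORG and parental cells and 58% between BORG and knockout cells.

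**Figure D2:**
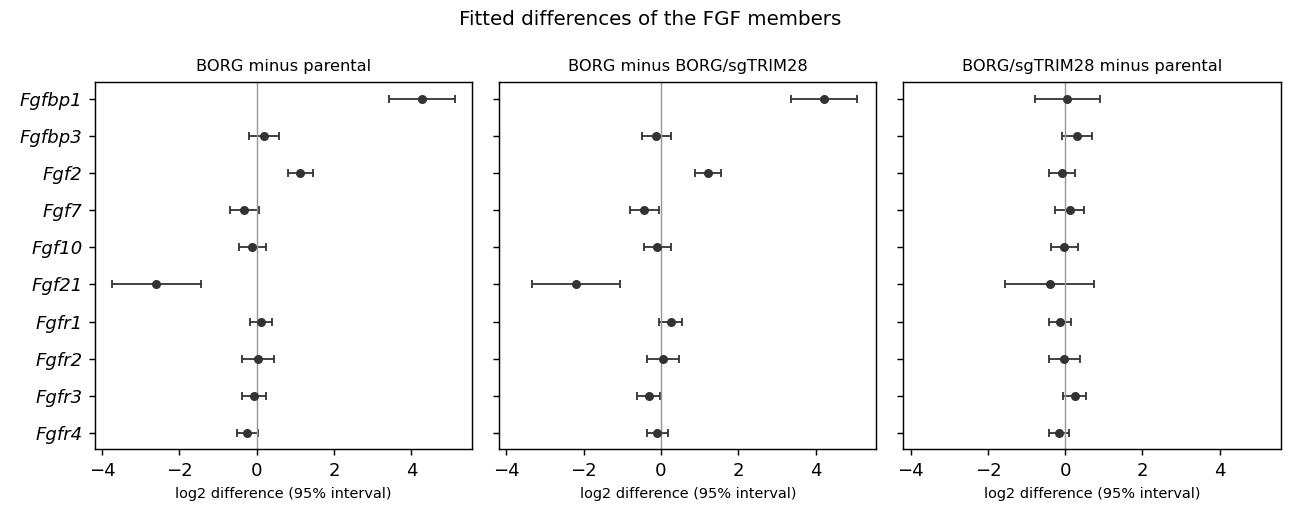
Fitted log2 differences of the 10 members with 95% intervals (horizontal axis) in the 3 comparisons. Fgfbp1 lies at 4.28 and 4.22, Fgf2 at 1.13 and 1.22, and Fgf21 at -2.60 and -2.19 against parental and knockout cells, whereas all 10 intervals cover 0 between knockout and parental cells.

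Counted over the 9 members other than Fgfbp1, 2 were called between BORG and parental cells, 1 higher (Fgf2) and 1 lower (Fgf21), where 7.09% of all clusters and 9.7% of genes were called. The same 2 were called between BORG and BORG/sgTRIM28 cells, where 9.55% of clusters and 12.5% of genes were. With so few members a count of 2 of 9 is a description only. None was called between knockout and parental cells by limma, where 0.121% of clusters were, and 0 of 9 had an unadjusted p under 0.05 there, where 8.15% of genes did. In the other comparisons 2 and 4 of 9 did, where 25.9% and 28.4% of genes did. The methods' t-test, adjusted over all clusters, called 0 of 41345 clusters in each comparison so its count of 0 among the members carries no information about them. At a 2-fold change together with an unadjusted limma p under 0.05, Fgf2 and Fgf21 passed in both comparisons with BORG cells, as did 4.04% and 4.8% of genes. With this fold and the unadjusted p of the methods' t-test in place of limma's, Fgf2 passed in both and Fgf21 in neither, where 2.45% and 2.92% of clusters passed. The median difference of the 9 members was -0.07 between BORG and parental cells and -0.10 between BORG and knockout cells, beside -0.03 and -0.06 over all genes.

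The rest of the pathway was followed through 7 lists with 97 genes, of which 89 had a cluster of their own. A listed gene is described as higher, lower or changed only where it was called, and pairs of differences are given against parental cells first and knockout cells second. Between BORG and parental cells 16 were higher and 3 lower, where 5.75% and 3.95% of genes were called higher and lower. Between BORG and knockout cells 22 were higher and 3 lower, against 7.44% and 5.08% of genes. Between knockout and parental cells 1 was higher (Flrt3) and 1 lower (Sulf2), against 0.162% of genes called in all. The median difference over the 89 genes was 0.08, 0.05 and 0.03 in the 3 comparisons. The shares called against parental cells were 30% of co-receptors, 35.7% of carriers, 5.88% of enzymes, 7.14% of adaptors and 56.25% of targets. Over all genes the share was 9.7%. Against knockout cells they were 20%, 35.7%, 29.4%, 21.4% and 62.5% in the same order, beside 12.5% of genes. These shares were not tested. Without parental array 1 or 2 the 19 calls of the first comparison became 11 and 10. In the second comparison the 25 calls became 15 without BORG array 1 and 14 without either BORG/sgTRIM28 array. Both calls between knockout and parental cells were lost whichever array was left out.

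None of the 14 other secreted ligands was called in any comparison by limma, and 1, 1 and 0 of them had an unadjusted p under 0.05, where 25.9%, 28.4% and 8.15% of all genes did. Their differences between BORG and parental cells ran from -0.37 to 0.31, so Fgf2 and Fgf21 were the only secreted FGF ligands called among the 18 measured. Fgf3, Fgf5, Fgf8, Fgf9, Fgf16 and Fgf23 read below the array median on every array, with means from 3.96 (Fgf23) to 4.98 (Fgf8). Detection was not established there, so the lack of a call says little about these genes. Fgf1, Fgf17, Fgf18 and Fgf22 read above the median on every array. The 4 intracellular FGF homologous factors, relatives that are not secreted and bind sodium channels, had no calls either.

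Of 10 co-receptors and receptor partners, 2 were higher and 1 lower between BORG and parental cells. The endocrine co-receptors Kl and Klb, of which Klb serves Fgf21, read 4.08 to 4.38 and 4.03 to 4.42 over all arrays, below the array medians, and were not called. Flrt3, a transmembrane protein that binds FGF receptors and promotes their signalling in Xenopus, read 5.65 and 5.83 in parental cells, 8.89 and 8.79 in BORG cells, and 7.27 and 7.32 in BORG/sgTRIM28 cells. Its 3 groups were wholly apart, with the knockout cells between the other groups. Flrt3 rose by 3.10 in BORG over parental cells (limma, adjusted p = 0.000708), and the knockout cells were lower than BORG cells by 1.54 (limma, adjusted p = 0.00175) and higher than parental cells by 1.55 (limma, adjusted p = 0.0244). L1cam, an adhesion molecule that can engage FGFR1, was higher in BORG cells by 1.36 and 1.34. Ncam1, a neural adhesion molecule with the same property, differed by -0.65 between BORG and parental cells (limma, adjusted p = 0.0383) and by -0.06 between BORG and knockout cells (limma, adjusted p = 0.823).

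Heparan sulfate carriers, the core proteins whose chains hold FGFs at the cell surface and in the matrix, had 5 of 14 higher and none lower in both comparisons with BORG cells, with medians of 0.47 and 0.28. Sdc1, a syndecan of epithelial cells, read 7.91 and 7.89 in parental cells, 9.10 and 8.93 in BORG cells, and 7.71 and 7.61 in BORG/sgTRIM28 cells. Its rises of 1.11 and 1.36 (limma, adjusted p = 0.00589 and 0.00242) were seen in its second cluster as well, at 1.00 and 1.21. Col18a1, a basement membrane collagen, was higher by 1.97 and 1.71, and Cd44, the hyaluronan receptor, by 1.20 and 1.42. Hspg2, the matrix proteoglycan perlecan, was higher by 0.66 and 1.23. Gpc1, a membrane-anchored glypican, was higher by 1.30 and 1.32 in the cluster used, whereas its second, dimmer cluster gave -0.05 and -0.04.

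The 17 measured heparan sulfate enzymes had 1 higher between BORG and parental cells and 4 higher and 1 lower between BORG and knockout cells. Hpse, the heparanase that cuts the chains, was higher by 1.11 and 1.49 (limma, adjusted p = 0.016 and 0.00525), and by 0.26 and 0.25 without a call in a second, dimmer cluster. Sulf2, a sulfatase that removes sulfate groups FGF binding uses, had another pattern. It read 10.38 and 10.34 in parental cells, 10.11 and 9.98 in BORG cells, and 9.02 and 9.18 in BORG/sgTRIM28 cells. The knockout cells were lowest and differed from parental cells by -1.26 (limma, adjusted p = 0.0341), and BORG exceeded knockout cells by 0.95 (limma, adjusted p = 0.00825). The chain-building enzymes Ext1 and Extl3 were higher in BORG than in knockout cells by 0.59 and 0.58. Glce, the epimerase of the chain, differed by -1.11 there (limma, adjusted p = 0.0416), and its second cluster gave -0.67 without a call. Between BORG and parental cells the cluster used gave -1.06, which did not pass (limma, adjusted p = 0.0546).

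Among 14 measured adaptors and kinases, none was higher and 1 lower between BORG and parental cells. Crkl, an adaptor protein, fell by 0.63 there (limma, adjusted p = 0.023) and differed by -0.55 between BORG and knockout cells (limma, adjusted p = 0.0288). The phospholipase Plcg1 and the docking protein Frs3 were higher in BORG than in knockout cells by 0.82 and 0.78 (limma, adjusted p = 0.0437 and 0.0358). Their differences from parental cells, 0.38 and 0.58, did not pass.

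The targets and feedback regulators held the most calls. These genes are induced by MAP kinase signalling below FGF receptors and below other receptor tyrosine kinases alike. Of 16, 8 were higher and 1 lower between BORG and parental cells and 9 higher and 1 lower between BORG and knockout cells, with medians of 0.87 and 0.94. Egr1, an immediate early transcription factor, read 7.00 and 7.21 in parental cells, 9.39 and 9.55 in BORG cells, and 6.71 and 6.88 in BORG/sgTRIM28 cells. Egr1 rose by 2.37 and 2.67 (limma, adjusted p = 0.0011 and 0.000585). Ccnd1, the cell cycle regulator cyclin D1, rose by 1.77 and 1.59, and the ETS factors Etv5 and Etv4 by 1.48 and 1.29 and by 1.07 and 1.26. A second Etv5 cluster gave -0.20 and -0.21.

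Of the 9 feedback inhibitors in the list, BORG cells had 4 above and 1 below their parental level. Dusp6, a phosphatase of ERK, read 7.61 and 7.83 in parental cells, 9.70 and 9.76 in BORG cells, and 8.25 and 8.11 in BORG/sgTRIM28 cells. Dusp6 rose by 2.01 and 1.55 (limma, adjusted p = 0.00154 and 0.0022), and a second cluster near the floor of the arrays gave 0.29 and 0.47 without a call. The RAS pathway inhibitors Spred3, Spry2 and Spry4 were higher by 1.78, 1.51 and 1.11 over parental cells and by 1.70, 1.23 and 1.27 over knockout cells. Spry3, singled out after its values were seen, was the member of the list that fell, by 0.85 relative to parental cells (limma, adjusted p = 0.0225). It also differed by -1.08 between BORG and knockout cells (limma, adjusted p = 0.00911). Spred2, chosen in the same way, was higher by 0.64 over knockout cells (limma, adjusted p = 0.018), and its difference of 0.46 from parental cells did not pass (limma, adjusted p = 0.055). The targets Fos, Myc, Etv1, Spry1, Spred1 and Il17rd were not called in any comparison.

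**Figure D3:**
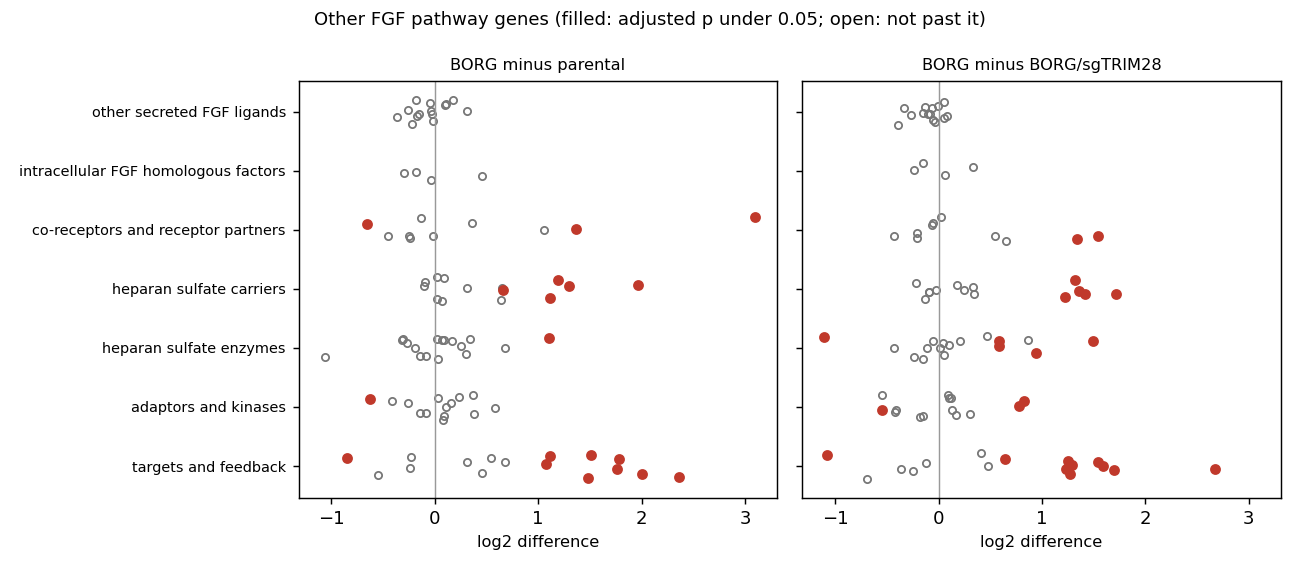
Log2 differences (horizontal axis) of the 89 measured pathway genes by list (vertical axis), BORG minus parental on the left and BORG minus BORG/sgTRIM28 on the right, with filled points for adjusted p under 0.05. Ligand points, all open, lie between -0.40 and 0.31, and most filled points are among the heparan sulfate carriers and the targets and feedback genes.

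The genes with the pattern most like that of Fgfbp1, by Euclidean distance over the 6 arrays between log2 values centred on each gene's mean, were Tcim (0.443), Aldh1a3 (0.563), Ptpn22 (0.669), Ppbp (0.788) and Adamtsl4 (0.820). Tcim, a small regulator of transcription, read 6.46 and 6.55 in parental cells, 10.95 and 10.02 in BORG cells, and 6.13 and 6.19 in BORG/sgTRIM28 cells. Like Fgfbp1, each of the 5 was high in both BORG arrays and higher in array 1 than in array 2. Aldh1a3 makes retinoic acid, Ptpn22 is a tyrosine phosphatase best known from lymphocytes, Ppbp is a chemokine precursor of platelets, and Adamtsl4 encodes a matrix protein. The 5 exceeded parental cells by 3.62 to 4.29 in BORG cells. They were picked by these values, which carry no test.

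**Figure D4:**
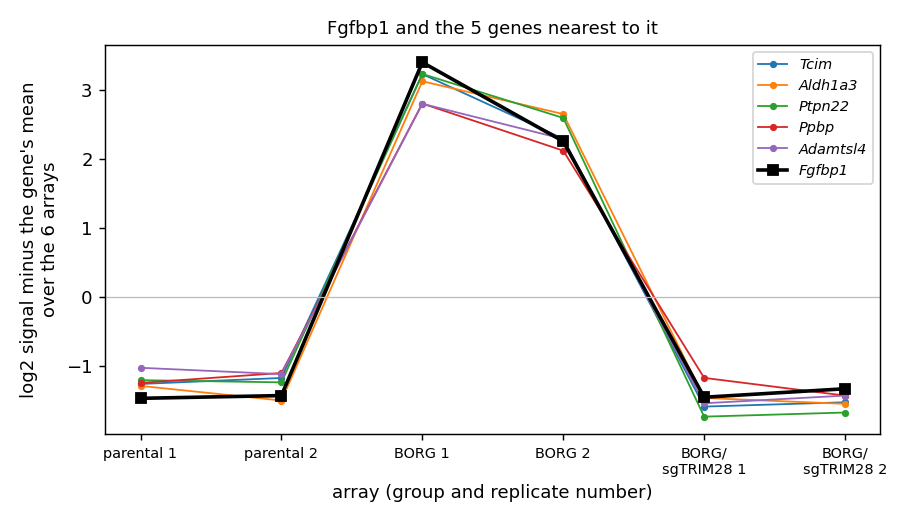
Log2 signal minus each gene's mean over the 6 arrays (vertical axis) for Fgfbp1 (black squares) and the 5 nearest genes on each array (horizontal axis). All 6 lines are high in BORG arrays 1 and 2, higher in array 1, and low in the other 4 arrays.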

How the data were processed

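RNA from 6 D2.OR cultures (3 groups of 2) was hybridised to Affymetrix Mouse Gene 2.0 ST arrays. Each deposited value is a log2 signal of 1 transcript cluster, which the authors made with Affymetrix software: the submitters' notes name Affymetrix Expression Console and Transcriptome Analysis Console, with neither version nor summarization method stated in the labels or the paper. Arrays give no read depth, so precision rests on the 2 arrays per group and on signal above background, for which no detection values were used. The values were taken as deposited, without renormalization or filter. Of 41345 clusters, 23521 carried 1 gene symbol in the platform annotation, 1820 several and 16004 none, and only those with 1 symbol were named, with 1 cluster per gene (22180 genes), the one with the highest mean. A fit of 3 group means over all clusters and all 6 arrays was made with limma 3.58.1 in R 4.3.3 (lmFit and eBayes; residual df 3, prior df 3.04), and p-values were adjusted by Benjamini-Hochberg over all clusters of each comparison. Standard errors and 95% intervals are those of the moderated fit, which pools the spread within all 3 groups. The same script was tested on simulated data with planted differences. Replicates were compared first and none was a duplicate.

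The members, the pathway lists and the marker lists were chosen with earlier results of these data known, so no test was made on a list as a whole. From the pathway lists, every gene called in any comparison was named, up to 8 per list by size. The alternatives tried were a replicate block, a fit of only the 4 arrays compared, quantile normalization, median centring, a variance trend, a filter on clusters below the median signal, a fit restricted to 1 cluster for each gene, the mean of a gene's clusters, the methods' t-test (two-sided, equal variance), a threshold of 2-fold with an unadjusted p under 0.05, and each array left out in turn. Gene positions, overlaps and promoter windows came from RefSeq tables of build GRCm38.p6, matched by Entrez ID or symbol. Of the 97 genes listed, 89 were measured and the others were not analysed here.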

Additional observations from a re-analysis of the deposited data

How the results depend on the processing

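The Fgfbp1 difference from parental cells ranged from 3.71 to 4.85, and that from knockout cells from 3.65 to 4.80, over each array left out in turn. The count of 9 other members called in BORG against parental cells and in BORG against knockout cells (2 in each) was 1 in both with only the 4 arrays compared, 0 by the methods' t-test (which called 0 of all 41345 clusters), and 0 to 2 with arrays left out. Of the pathway lists, 19 calls against parental cells became 29 with only brighter clusters and with 1 cluster per gene, where fewer clusters were tested, and 0 by the methods' t-test, with 10 to 20 over the arrays left out. The 25 calls against knockout cells became 0 by the methods' t-test and 14 to 26 over the arrays left out. The 2 calls between knockout and parental cells became 0 with the replicate block, with only the 4 arrays compared, by the methods' t-test and without any 1 array (0 to 0). Why these counts changed was not tested.

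Deviations of same-numbered arrays correlated at -0.01, -0.04 and 0.04 between groups, so no strong shared deviation was seen. The sources do not say whether same-numbered cultures were handled together, and these values cannot tell. With the replicate number as a block, Fgf2 and Fgf21 kept both calls, and 16 of the 19 and 19 of the 25 pathway genes were called again. Fgf21 alone lost its calls with only the 4 arrays compared (limma, adjusted p = 0.0695 and 0.0804). Over the 9 members and 3 comparisons, 390 of the values under alternatives kept direction and side of the threshold, 17 lost a call and 13 turned direction, none of these 13 called. All 17 lost calls belonged to Fgf2 and Fgf21, the only 2 of these 9 members called in the main fit. Most of the 390 were members without a call that stayed without one, so the tally does not measure how stable the calls were. Over the 10 alternatives other than leaving out an array, Fgf2 kept its call in 9 and Fgf21 in 8, in both comparisons with BORG cells. The arrays left out in turn gave, against parental cells, -0.25 to 0.027 for Fgf10, -0.17 to 0.24 for Fgfr2 and -0.15 to 0.0085 for Fgfr3. Against knockout cells they gave -0.29 to 0.055 for Fgfbp3, -0.21 to 0.016 for Fgf10 and -0.15 to 0.27 for Fgfr2. Between knockout and parental cells they gave -0.061 to 0.29 for Fgf7, -0.16 to 0.12 for Fgf10 and -0.13 to 0.083 for Fgfr2, and the mean of its clusters gave 0.00265 for Fgf10. Quantile normalization, median centring and the variance trend changed no member's call. Signals near the lower quartile limit what can be said of Fgf10, Fgfr2 and of Fgfbp1 outside BORG cells, and signals below the array median that of Fgf7 and Fgfr3.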

Other observations

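Outside the FGF system, the genes nearest to Fgf2 and Fgf21 were looked up in the same way as for Fgfbp1, a choice made after the values were seen. Nearest to Fgf2 were St3gal6 (distance 0.116), a sialyltransferase, Cyb561a3 (0.127), Map2k3 (0.159), a kinase that activates p38, Thsd4 (0.169) and Nceh1 (0.184), a cholesterol ester hydrolase. St3gal6 read 8.05 and 8.16 in parental cells, 9.16 and 9.39 in BORG cells, and 7.98 and 8.0 in BORG/sgTRIM28 cells. In all 5, BORG array 2 was above array 1, as it was for Fgf2.

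Nearest to Fgf21 were Fam171b (0.633), Slc7a11 (0.871), the cystine and glutamate antiporter, Serpinb9f (0.872), Hfe (0.909), a regulator of iron uptake, and 4930438A08Rik (0.932). Fam171b read 9.17 and 9.33 in parental cells, 5.45 and 7.24 in BORG cells, and 9.14 and 9.13 in BORG/sgTRIM28 cells. Slc7a11 read 11.19 and 11.15, then 8.38 and 9.86, then 10.53 and 10.46 in the same order of groups. All 5 were lower in BORG array 1 than in array 2, as Fgf21 was. These genes were picked by the values shown, which carry no test.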
